A study of Oryza sativa with 6 samples.

Results

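Diterpene cyclases fold geranylgeranyl diphosphate, a plastid C20 precursor, into the carbon skeletons of gibberellin and of the labdane-related phytoalexins of rice. A list of 8 such genes (CPS1, CPS2, CPS4, KS1, KSL4, KSL7, KSL8 and KSL10) was described here in the stem region of a resistant rice attacked by the gall midge. Probe sets were taken by gene symbol or synonym in the platform annotation, and 7 of the 8 genes had 1 or more of them. These gave 8 probe sets out of 57381 on the Affymetrix Rice Genome Array, with 2 for KSL7. KSL8, which makes stemarene for oryzalexin S, matched no symbol or synonym and was not analysed here.

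In both routes a class II cyclase, a copalyl diphosphate synthase (CPS), acts first and a class I cyclase, a kaurene synthase or kaurene synthase-like enzyme (KS or KSL), acts second. CPS1 and KS1 make ent-copalyl diphosphate and then ent-kaurene, from which every gibberellin of the plant is built. CPS2 makes the same ent-copalyl diphosphate for phytocassanes and oryzalexins, with KSL7 and KSL10 as second enzymes, while CPS4 makes the syn isomer that KSL4 turns towards momilactones. Phytoalexins are antimicrobial compounds that rice leaves accumulate after attack by the blast fungus, and several of their genes lie side by side in clusters on chromosomes 2 and 4.

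All samples were of one rice genotype, RP2068-18-3-5 (RP), which is resistant to biotype GMB1 of the Asian rice gall midge and carries no transgene. Infested samples (RP-I) came from trays of plants on which 25 female and 10 male GMB1 insects were released when the plants were 15 days old, and un-infested samples (RP-UI) from trays handled in the same way without insects. From each plant 1 cm of stem region was cut at the maggot feeding site or at the matching place, at 24, 48 and 72 h after infestation (hai), and the 3 time points were pooled for each array. Each group had 3 arrays, 1 for each tray, so that a difference between time points cannot be read.

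Signals are log2 values from robust multi-array averaging (RMA), and a difference of 1 stands for a 2-fold change. The 51532 probe sets that passed a filter on low signal (mean over the 6 arrays of 3.38 or more on the log2 scale) were compared between the groups by the moderated test of limma, with p-values adjusted over all of them by Benjamini and Hochberg. All 8 diterpene cyclase probe sets passed this filter. A call is an adjusted p under 0.05. Because arrays that carry the same replicate number deviated from their group means together, the comparison was also run with replicate number as a block, that is, within the 3 numbered pairs. The pairing was read from these same values, since the labels state none between infested and un-infested trays. For the arrays numbered 2 the deviations correlated at 0.308, close to the 0.295 of RP-UI 1 with RP-I 2. Array medians lay between 5.44 and 5.49. RP-I 3 correlated best with RP-UI 3 (r = 0.973 over probe sets) and less well with RP-I 1 (0.967) and RP-I 2 (0.962), so results that turn on that array are given with and without it. With the block 4379 probe sets of the array were called by limma. With both arrays numbered 1 left out of the blocked comparison 0 were, although 8110 had an unadjusted p under 0.05.

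Of the 7 genes measured, CPS1 was the one whose signal separated the groups. It rose with the replicate block, to 3.17-fold on the means, whereas KS1, CPS2, CPS4, KSL7 and KSL10 gave changes between -0.15 and 0.30 on the log2 scale, with no call in either comparison. KSL4 was 2.77-fold higher on the means with overlapping groups and passed neither adjusted test. Without the block 0 of the 8 probe sets were called, against 0.563% of all probe sets. An unadjusted p of 0.05 or under in limma was reached by 2 of the 8, against 7330 of all 51532 tested. With the block 1 was called against 8.5% of the array. At an unadjusted p of 0.05 or under with a 2-fold change, the study's own thresholds, CPS1 and KSL4 passed, against 5.56% of all probe sets in either direction and 2.66% upwards. These 2 are the members that the study lists, on the same arrays and at these thresholds, so their passing is no independent evidence.

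**Figure D1:**
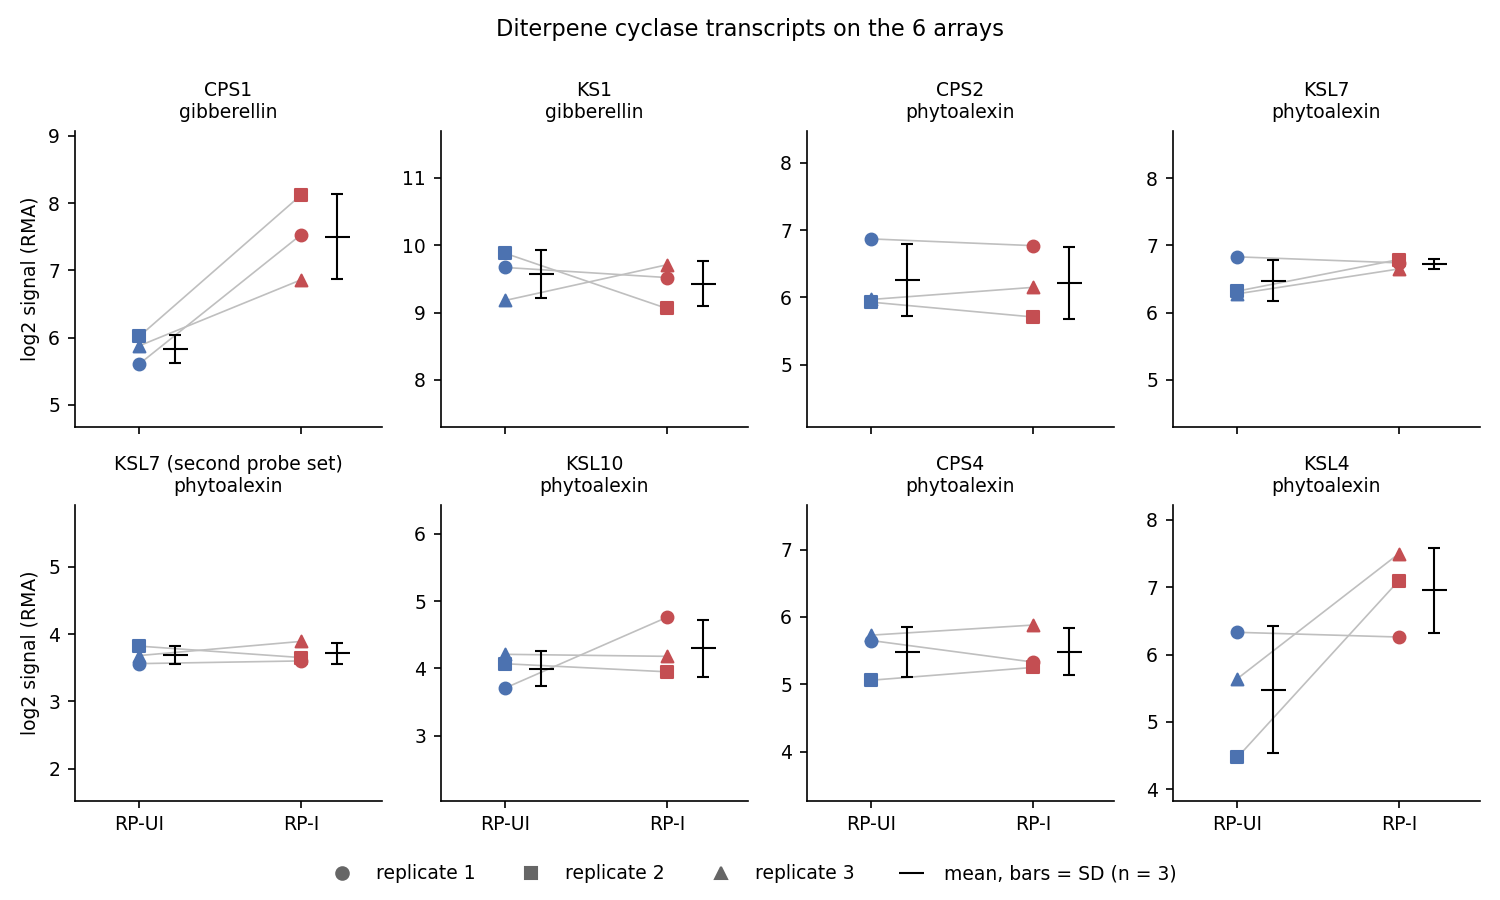
Log2 RMA signal of each diterpene cyclase probe set (vertical axis) in RP-UI and RP-I, 1 panel for each probe set and all panels spanning the same number of log2 units. Points are arrays, thin lines join arrays of the same replicate number, and bars are the mean with SD (n = 3); the CPS1 points of RP-I, from 6.86 to 8.12, all lie above those of RP-UI, while the groups overlap in the other panels.

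CPS1 (LOC4329013, chromosome 2) commits geranylgeranyl diphosphate to the gibberellin route. Its log2 signal was 5.61, 6.02 and 5.88 on RP-UI arrays 1, 2 and 3, and 7.53, 8.12 and 6.86 on RP-I arrays 1, 2 and 3. Every RP-I array was above every RP-UI array, while the groups did not overlap for 18.9% of all probe sets (9.12% upwards), and RP-I 3 was the lowest of the infested arrays. The mean went from 5.84 ± 0.21 to 7.50 ± 0.63 (SD, n = 3), a log2 difference of 1.67 with a standard error of 0.32 and a 95% interval from 0.88 to 2.45. In limma's moderated test this gave an unadjusted p of 0.00178 and an adjusted p of 0.0806. Within the numbered pairs the differences were 1.92, 2.10 and 0.98, all upwards, as for 22.3% of all probe sets. With the block the standard error was 0.25 and limma's adjusted p was 0.0262. The call depended on single arrays. Without RP-I 3 the log2 difference was 1.99 and limma's adjusted p 0.0454 with no block, while leaving out any one of the other arrays gave no call (differences from 1.36, adjusted p up to 0.299). With the block and both arrays numbered 1 left out, limma's adjusted p was 0.164. Since each array holds RNA of a whole stem piece, more cells of a type and more RNA per cell cannot be told apart.

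KS1 (LOC4336960, chromosome 4) converts the CPS1 product to ent-kaurene. Its signal was 9.67, 9.88 and 9.18 in RP-UI 1 to 3 and 9.52, 9.06 and 9.71 in RP-I 1 to 3. The groups overlapped throughout and the pairs went in different directions, by -0.15, -0.81 and 0.52. The log2 difference was -0.15 with a standard error of 0.25, and its 95% interval from -0.75 to 0.46 leaves out a rise of the size seen for CPS1 (adjusted p = 0.914 in limma). The intervals of the first and the second enzyme of gibberellin synthesis did not overlap, and the difference between the genes was not tested. The suffix s_at in the name of the KS1 probe set marks probes that can match more than 1 transcript. KS1 stands between related cyclase genes, KSL2 and KSL3, on its chromosome, and how much of the signal comes from them was not tested.

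On the phytoalexin side, CPS2 (LOC9266189, chromosome 2) catalyses the same first step as CPS1. Its signal was 6.87, 5.93 and 5.97 in RP-UI 1 to 3 and 6.77, 5.71 and 6.15 in RP-I 1 to 3. Replicate number set these values apart more than infestation did, with both arrays numbered 1 the highest in their group. The mean was 6.26 ± 0.53 in RP-UI and 6.21 ± 0.53 in RP-I, a log2 difference of -0.05 (95% interval -0.92 to 0.83, adjusted p = 0.989 in limma). With the block the interval narrowed to -0.40 to 0.31, which bounds any rise of CPS2 at less than that of a 2-fold change. The 95% intervals of the 2 synthases that share a product, CPS1 (0.88 to 2.45) and CPS2 (-0.92 to 0.83), did not overlap. CPS1 had the larger difference in each of the 3 pairs, but the difference between the genes was not tested.

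KSL7 (LOC4329724, chromosome 2) takes the CPS2 product to ent-cassadiene, the hydrocarbon of phytocassanes. It read 6.83, 6.32 and 6.28 in RP-UI 1 to 3 and 6.74, 6.79 and 6.65 in RP-I 1 to 3. The infested arrays were close to one another (SD 0.07) and inside the upper part of the un-infested range, with RP-UI 1 the highest of all 6. The log2 difference was 0.25 ± 0.19 (standard error), with a 95% interval from -0.20 to 0.70 (adjusted p = 0.695 in limma). A second KSL7 probe set stood near the low-signal limit, between 3.56 and 3.89 on all 6 arrays, and gave 0.03 (95% interval -0.33 to 0.38).

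KSL10 (LOC4352248, chromosome 12) makes ent-sandaracopimaradiene for the oryzalexins and does not lie in either cluster. Its signal was low on all arrays, at 3.71, 4.07 and 4.21 in RP-UI 1 to 3 and 4.76, 3.95 and 4.18 in RP-I 1 to 3. One array, RP-I 1, was above the rest, and the other infested arrays lay within the un-infested range. The log2 difference of 0.30 (95% interval -0.31 to 0.91, adjusted p = 0.746 in limma) rests on that array. In the blocked comparison with both arrays numbered 1 left out it was -0.08.

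CPS4 (LOC4335090, chromosome 4) provides syn-copalyl diphosphate, the entry to momilactones and oryzalexin S. Its signal was 5.65, 5.06 and 5.73 in RP-UI 1 to 3 and 5.33, 5.25 and 5.88 in RP-I 1 to 3. Both groups covered the same range, with means of 5.48 ± 0.36 and 5.49 ± 0.34. The log2 difference was 0.01 (95% interval -0.61 to 0.62, adjusted p = 0.998 in limma) and its sign changed with the scaling of the arrays, being -0.01 after centring each array on its median.

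KSL4 (LOC4335094, chromosome 4) forms syn-pimaradiene, the hydrocarbon of momilactones, from the CPS4 product. It read 6.33, 4.47 and 5.64 in RP-UI 1 to 3 and 6.26, 7.10 and 7.50 in RP-I 1 to 3. Arrays numbered 2 and 3 were higher with infestation, by 2.63 and 1.86, while the arrays numbered 1 differed by -0.08 and the groups overlapped. The mean went from 5.48 ± 0.94 to 6.95 ± 0.63, a log2 difference of 1.47 with a standard error of 0.53 (95% interval 0.19 to 2.75). The unadjusted p of 0.0302 in limma became an adjusted p of 0.274, or 0.173 with the block, and leaving out single arrays moved the difference between 0.97 and 1.90 without a call. RP-UI 2 gave the lowest value of all 6. The A1 in the name of its probe set is the array maker's mark for a source sequence of reversed orientation, and the strand that it reads was not tested.

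**Figure D2:**
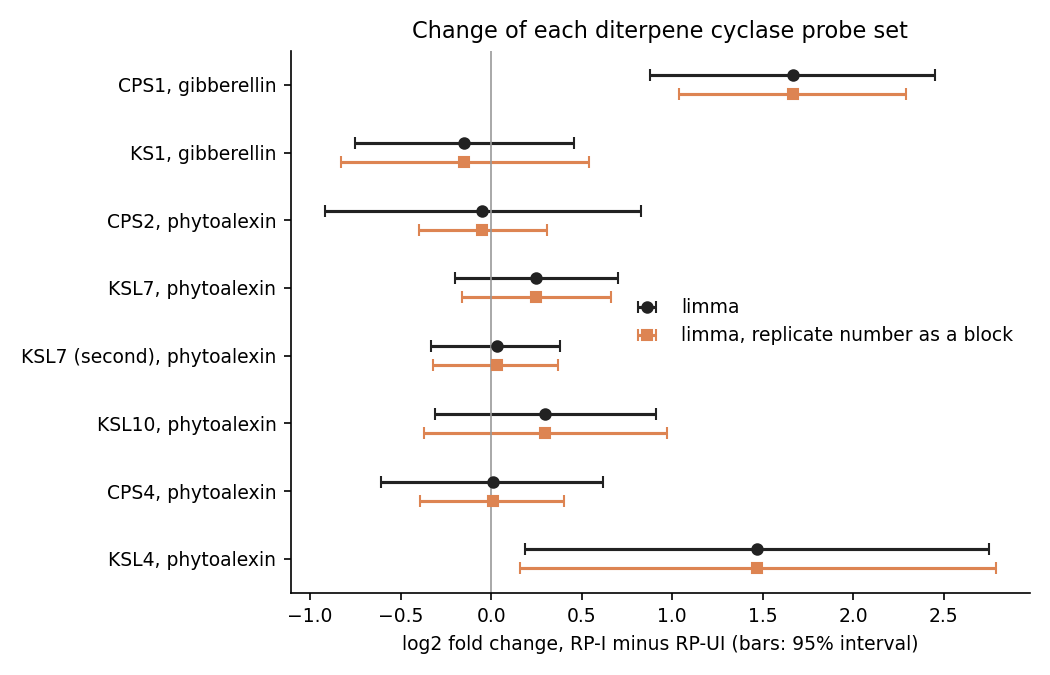
Log2 fold change of each diterpene cyclase probe set, RP-I minus RP-UI (horizontal axis), without the block (circles) and with replicate number as a block (squares); bars are 95% intervals of limma's moderated test. CPS1 stands at 1.67 and KSL4 at 1.47, and every other interval includes 0.

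The branches were set side by side by averaging, on each array, the deviations of their genes from the RP-UI mean, with 1 probe set for each gene. For the gibberellin branch (CPS1 and KS1) the un-infested arrays gave -0.07, 0.24 and -0.18, and the infested arrays 0.82, 0.88 and 0.58. For the phytoalexin branch (CPS2, CPS4, KSL4, KSL7 and KSL10) the corresponding values were 0.34, -0.37 and 0.03 without infestation, then 0.43, 0.22 and 0.53 with it. The infested arrays thus stood apart from the un-infested ones in the first and not in the second, where RP-UI 1 was above RP-I 2. In each branch, however, 1 gene carried most of the shift, CPS1 in the first and KSL4 in the second. The RP-I mean was 0.76 ± 0.16 for the gibberellin branch and 0.40 ± 0.16 for the phytoalexin branch (SD, n = 3), and phytoalexin minus gibberellin came to -0.36, with an SD over arrays of 0.31 in RP-I and 0.54 in RP-UI. The branch difference was smaller than the spread of the un-infested arrays, and within the numbered pairs it was -0.79, -0.05 and -0.25. It moved to -0.16 without RP-UI 1, -0.21 without RP-I 2 and -0.67 without RP-UI 2. It was not tested, since the members were chosen with earlier results of these data known. Besides, an exact permutation test of 3 arrays against 3 cannot give a p below 0.10. The median log2 difference was 0.14 over the 8 probe sets and also over the 6 of the phytoalexin branch, against 0.01 for all probe sets tested.

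The members varied across the arrays in different ways. Over the 6 arrays the signal of KSL4 went most closely with that of KSL7 (Pearson r = 0.72), and CPS1 with KSL4 (0.56). CPS1 and CPS2, which make the same product, gave -0.24, and CPS1 and its partner KS1 gave -0.47. These 6 points share the group difference and the replicate numbers, so the coefficients are descriptions.

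Further down the gibberellin route, the probe sets of 3 genes moved upwards with CPS1 within the numbered pairs. The list of later steps held 5 probe sets of 4 genes: KO2, the ent-kaurene oxidase that acts right after KS1; KAO, which oxidises ent-kaurenoic acid; and GA20ox2 and GA20ox3, the 20-oxidases that carry the intermediates to the precursors of active gibberellin. The 18 names sought matched 7 gene entries, of which these 4 had a probe set. GA3ox1, GA3ox2, GA20ox1 and GA20ox4 were sought but gave no probe set by symbol, so the route is covered in part. None of the 5 probe sets passed the test without the block, where 3 had an unadjusted p of 0.05 or under in limma, against 7330 of all 51532 tested. With the block 4 rose, against 4.06% of all probe sets that rose in the blocked comparison. The median log2 difference of the 5 was 0.84. Leaving out both arrays numbered 1, 2 or 3 from the blocked comparison left 0, 3 and 2 of them called.

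For the brighter KO2 probe set the signal was 7.23, 7.11 and 7.83 in RP-UI 1 to 3 and 8.25, 7.95 and 8.78 in RP-I 1 to 3, with no overlap. The pairs differed by 1.01, 0.84 and 0.95, a narrow range. Its log2 difference of 0.93 had an adjusted p of 0.201 in limma without the block and of 0.0209 with it. The other KO2 probe set gave 0.77, with an adjusted p of 0.32 and of 0.0337 with the block, and 0.52 without RP-I 3 and with no block; both names carry the suffix of probes that may cross-hybridise with related genes.

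GA20ox3 read 8.47, 8.86 and 10.44 in RP-UI 1 to 3 and 10.26, 10.41 and 11.97 in RP-I 1 to 3. Both arrays numbered 3 were the highest of their group, so that the groups overlapped although each pair rose, by 1.79, 1.56 and 1.54. The log2 difference was 1.63, or 3.09-fold, with a standard error of 0.65 without the block and 0.13 with it, and limma's adjusted p went from 0.332 to 0.015. Without RP-I 3, and with no block, the difference of GA20ox3 was 1.08. For GA20ox2, the SD1 semidwarf gene of rice breeding, the signal was 6.28, 5.75 and 7.09 in RP-UI 1 to 3 and 7.21, 6.75 and 7.68 in RP-I 1 to 3. The log2 difference was 0.84 (adjusted p = 0.425 in limma, 0.0334 with the block), and without RP-UI 2, with no block, it was 0.53. KAO read between 4.23 and 4.92 on the 6 arrays and gave -0.06 (adjusted p = 0.968 in limma). Within the numbered pairs the RP-I array was thus the higher one in all 3 for CPS1, KO2 and the 20-oxidases, and in 1 of 3 for KS1 and for KAO. Among CPS1, KS1 and the 5 probe sets of later steps matched by symbol, CPS1 and the brighter KO2 probe set had groups without overlap. Over all probe sets the share was 18.9% (9.12% upwards).

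**Figure D3:**
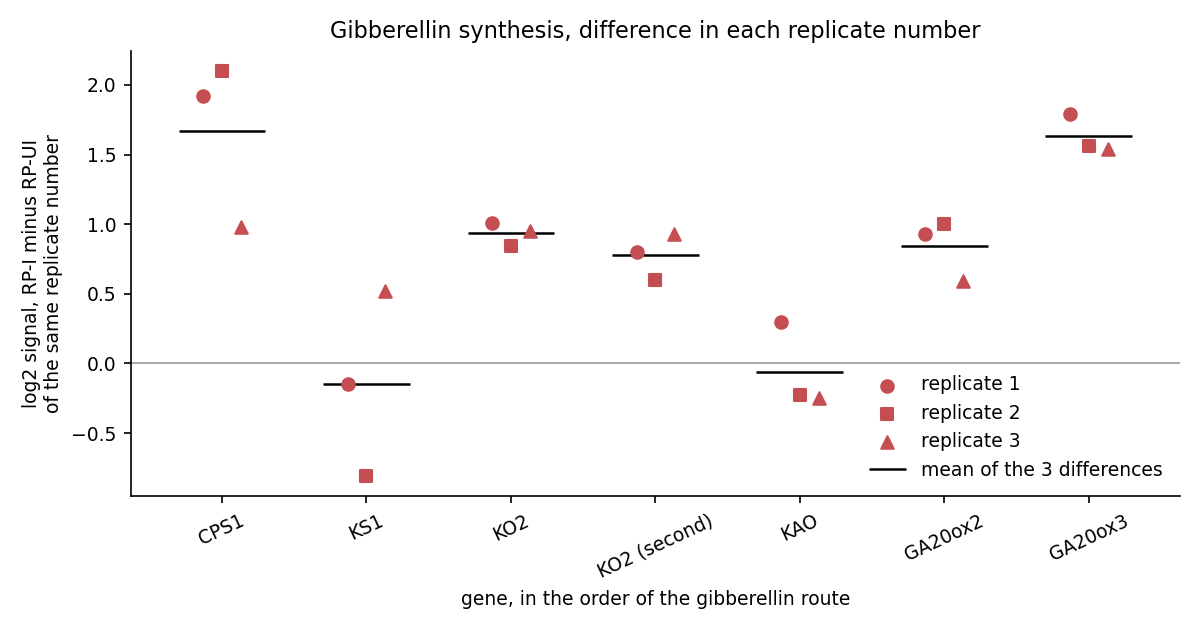
Difference in log2 signal between the RP-I and the RP-UI array of the same replicate number (vertical axis) for probe sets of gibberellin synthesis in the order of the route; points are the 3 replicate numbers and lines their mean. All 3 differences are above 0 for CPS1, both KO2 probe sets, GA20ox2 and GA20ox3, and they straddle 0 for KS1 and KAO.

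The lists of gibberellin removal, of which 1 gene could be matched by symbol, and of gibberellin response held no probe set that passed either test. Over all probe sets 0.563% passed without the block and 8.5% with it, and lists this short can hold none at these shares. They also held 0 with an unadjusted p of 0.05 or under in limma, against 7330 of all 51532 tested. EUI, a P450 that inactivates gibberellin, gave a log2 difference of 0.23 (adjusted p = 0.702 in limma). The 8 probe sets of gibberellin response, which include the receptor gene GID1 and the DELLA repressor gene SLR1, lay between -0.67 and 0.36 with a median of 0.04. SLR1 itself gave 0.04 (95% interval -1.01 to 1.08). The value of -0.67 was that of SLRL1, a DELLA-like gene, whose groups did not overlap (adjusted p = 0.407 in limma, 0.144 with the block).

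Upstream of both branches, 5 probe sets of the plastid pathway that supplies the C20 precursor (DXR, IspE, MCS, IspG and IspH) gave log2 differences from -0.72 to 0.46, with 4 lower, 1 higher, no call in either comparison and 0 with an unadjusted p of 0.05 or under in limma. For the P450s and the dehydrogenase that tailor phytoalexins, 11 probe sets were tested and none passed with or without the block. Of these 11, 1 had an unadjusted p of 0.05 or under in limma, against 7330 of all 51532 tested. Means were higher for 6 and lower for 5, with a median difference of 0.01. KSL5, a cyclase of the same family, gave 0.08 (adjusted p = 0.937 in limma), and WRKY76, a transcription factor known as a repressor of rice blast defence, gave -0.03 (adjusted p = 0.993 in limma). No probe set of precursor supply or of the diterpene phytoalexin route was thus called. Over all probe sets 0.563% were called without the block and 8.5% with it, and so few probe sets can hold no call at these shares. Coverage was thin as well. The 18 names sought for precursor supply gave 5 genes with a probe set, the 10 for other cyclases 1 and the 7 for regulators 1.

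Within the gene cluster on chromosome 4, KSL4 and 1 tailoring gene next to it had higher means on RP-I arrays while CPS4, CYP99A3 and MAS did not stand apart. CYP99A2, a P450 of the momilactone cluster that follows KSL4 in gene order, read 7.50, 6.85 and 6.75 in RP-UI 1 to 3 and 7.56, 8.46 and 8.17 in RP-I 1 to 3. As for KSL4, the arrays numbered 2 and 3 differed, by 1.62 and 1.42, and those numbered 1 did not, at 0.06. Its log2 difference was 1.03, with an unadjusted p of 0.0132 and an adjusted p of 0.184 in limma (0.138 with the block). CYP99A3, which oxidises syn-pimaradiene, gave -0.02, and MAS, the momilactone A synthase gene, gave -0.15, so that CPS4, CYP99A3 and MAS, which lie before KSL4 in gene order, had differences close to 0.

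Around CPS4 and KSL4, 8 other probe sets of genes within 100 kb were tested, and 1 of them was called, with and without the block. Over all probe sets 0.563% were called without the block and 8.5% with it. The called neighbour was LOC4335086, 4 entries before CPS4 in gene order and without a gene name in the annotation. Its signal was 8.42, 8.13 and 7.73 in RP-UI 1 to 3 and 5.20, 4.72 and 4.34 in RP-I 1 to 3, far apart on all arrays. The log2 difference was -3.34 (adjusted p = 0.0284 in limma, 0.015 with the block); leaving out any array other than RP-I 3, or both numbered 1 in the blocked comparison, took the adjusted p above 0.05, up to 0.202. ARP9, an actin-related protein gene next to CPS4, gave 0.64 on one probe set (unadjusted p of 0.0443 and adjusted p of 0.331 in limma) and -0.56 on its other, so that the probe sets disagreed in direction. Around CPS2 and KSL7 on chromosome 2, 9 other probe sets were tested and none was called with or without the block. That is near the shares over all probe sets. Of these 9, 0 had an unadjusted p of 0.05 or under in limma, against 7330 of all 51532 tested. They ranged from -0.64 for CYP71Z7, a P450 of phytocassane synthesis, to 0.44 for CYP71Z6, with a median of 0.06.

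**Figure D4:**
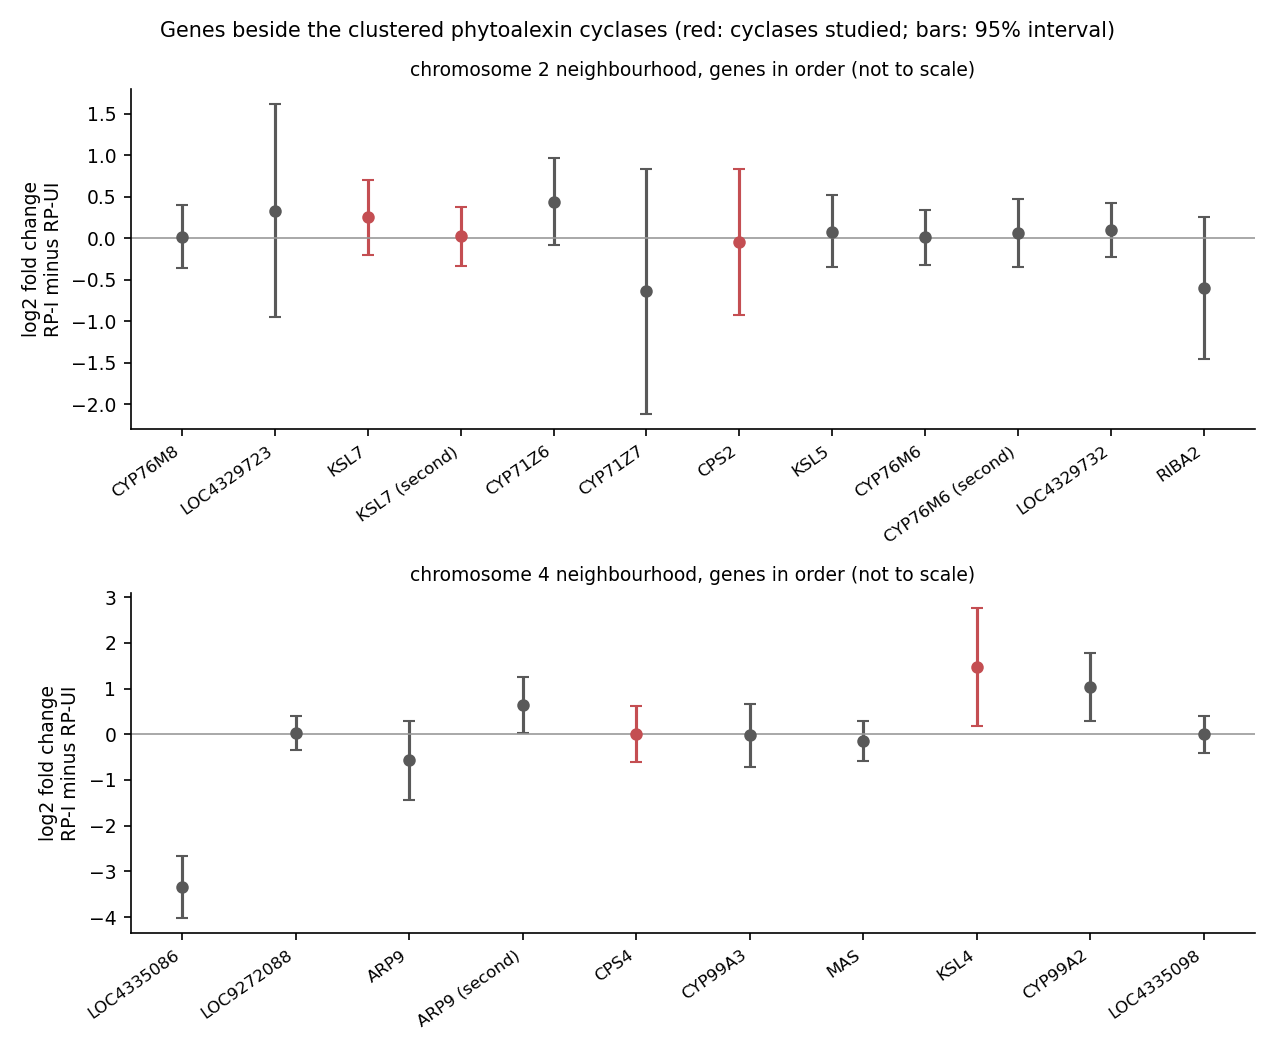
Log2 fold change, RP-I minus RP-UI, with 95% intervals of limma's moderated test (vertical axis) for probe sets of the genes that neighbour KSL7 and CPS2 on chromosome 2 (top) and CPS4 and KSL4 on chromosome 4 (bottom), in gene order and not to scale. The diterpene cyclases are in red; KSL4 at 1.47 and CYP99A2 at 1.03 lie above 0 and LOC4335086 lies at -3.34, with the vertical scales of the panels differing.

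Named genes whose signal went most closely with a member over the 6 arrays were sought among 1702 probe sets that name 1 gene and vary by 1 log2 unit or more. Closest to CPS1 were HSP17.9B, a small heat shock protein gene (r = 0.993), OsPP2C70, a protein phosphatase gene (0.988), MTP5, a metal transporter gene (0.981), OsNrx1-2, a nucleoredoxin gene (0.981), and BIP119 (0.975). All of them were higher on every RP-I array than on any RP-UI array, with log2 differences from 0.70 (BIP119) to 1.08 (OsNrx1-2), and like CPS1 their signal on RP-I 3 was the lowest of the infested arrays. None was called without the block, while with it HSP17.9B, OsPP2C70 and OsNrx1-2 rose, at adjusted p of 0.0465, 0.0389 and 0.036 in limma. Over all probe sets 9.12% were separated upwards and 4.06% rose with the block. These genes were picked by likeness to CPS1 on the same arrays. Their separation, low RP-I 3 and calls thus follow largely from that choice and are no independent evidence. For CPS4 the closest were CIPK7, a protein kinase gene (0.983), MT2C, a metallothionein gene (0.966), TOM20, a mitochondrial import receptor gene (0.961), CCC1, a cation-chloride cotransporter gene (0.952), and GI, the clock gene GIGANTEA (0.947). Their log2 differences lay between -0.05 (MT2C) and 0.03 (TOM20), and apart from GI they were, like CPS4, highest on arrays numbered 3 and lowest on those numbered 2 in both groups. For CPS2 the coefficients were lower, from 0.740 for CIPK18 to 0.640 for the zinc transporter gene OsZIP3, with LOGL6, PRX112 and AO-4 between. A correlation over 6 arrays of 2 groups is a description and carries no p, and traits shared with the matched member follow largely from the choice.

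The labelled stem region was checked against marker genes, since a shift in tissue would move with the groups. Genes of the shoot meristem and stem (6 probe sets of OSH1, OSH6, OSH43 and OSH71) had a mean log2 signal from 5.89 to 6.69 in RP-UI and from 7.29 to 7.53 in RP-I. All 6 had a higher mean in RP-I, and OSH71 rose by a log2 difference of 1.64 (adjusted p = 0.0476 in limma). One OSH1 probe set, at 0.93, rose with the block (adjusted p = 0.172 in limma, 0.0304 with the block). The other OSH1 probe set had the largest difference of the list, 2.32, and no call. Its unadjusted p was 0.0168 and its adjusted p 0.205 in limma (0.0697 with the block). On RP-UI 2 it read 3.58, near the low-signal limit. The 6 probe sets of green leaf genes (RBCS and CAB2R) had a mean from 9.22 to 9.66 in RP-UI and from 8.99 to 9.11 in RP-I, where the CAB2R probe sets gave log2 differences of -1.32 and -1.59, the second of which fell with the block (adjusted p = 0.0775 in limma, 0.0485 with the block), and the 4 of RBCS lay between 0.00 and 0.41. The mean over the 6 probe sets of root genes was 4.27 to 4.37 in RP-UI and 4.27 to 4.45 in RP-I. This mean hides a brighter probe set, that of LOC4330713 on chromosome 2. It read 6.93, 7.21 and 7.03 in RP-UI 1 to 3 and 6.84, 7.45 and 7.27 in RP-I 1 to 3. Its log2 difference was 0.13 (adjusted p = 0.892 in limma). The other root probe sets read 4.47 or less on every array. The low mean therefore does not show that root transcripts were absent. The mean of the meristem markers was thus higher on every infested array, as CPS1 was. That of the leaf markers was lower on every infested array through the CAB2R probe sets alone. The 4 of RBCS did not have lower means, and the median difference over the 6 leaf probe sets was 0.01. The part of either marker list in the differences of CPS1, KO2 and the 20-oxidases was not tested.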

How the data were processed

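Transcripts were measured on 6 Affymetrix Rice Genome arrays, 3 for RP-I and 3 for RP-UI. The authors corrected background, normalized by quantiles and summarised probes by RMA, and the deposited values are log2 signals. GeneSpring is the software of the paper's methods; Affymetrix Expression Console and RMA are those of the submitters' processing notes. The version of each, and a genome build, were not given in the sources used here. Pooling over the time points is described for RNA in the methods and for tissue in the labels, which the values do not settle. Replicates were separate trays, and the number of arrays, 3 for each group, limits the precision.

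The deposited log2 values were used unchanged, without the array maker's 123 control probe sets and without probe sets whose mean lay below the 10th percentile, which left 51532. RP-I was compared with RP-UI by lmFit and eBayes of limma 3.58.1 in R 4.3.3, with Benjamini-Hochberg adjustment over all probe sets kept; the script was tested on simulated data. Other steps used Python 3.11.15 with numpy 2.4.6, pandas 2.3.3 and, for figures, matplotlib 3.10.9. Values after ± are SDs over a group's 3 arrays unless named a standard error.

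Same-numbered arrays count as pairs where the deviations from the group means correlate above 0.1 for every number. The correlations were 0.521, 0.308 and 0.624 for numbers 1, 2 and 3, so the blocked comparison is printed wherever it changes a call. The labels make each tray a replicate and state no pairing between infested and un-infested trays, and because the 3 deviations of a group sum to 0, the pairing of numbers 1 and 2 is less sure than that of 3.

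Probe sets were named through the platform annotation, in which 22436 probe sets name 1 gene, joined to a RefSeq gene table of assembly ASM3414082v1. As the build of the array annotation is not stated, positions served for the order of neighbouring genes and for their chromosome, and none is printed. Where a gene had several probe sets, the one of highest mean signal stands first. The members, gene lists and tests were chosen with earlier results of these data known. Named in the text are all members, list and neighbourhood genes called with or without the block, the 2 with the largest change at an unadjusted p of 0.05 or under in each list and neighbourhood, and the 5 closest patterns; other names were added after their values were seen. From the lists 2 synonym matches to unrelated genes (entries for MCS and GID2) were dropped after the values were seen, and neither had passed; KO1, a synonym of CYP701A8, was counted under tailoring. Sequences of members were not used here. Alternatives were the replicate block, other scalings, filters and variance models, and leaving out arrays.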

Additional observations from a re-analysis of the deposited data

How the results depend on the processing

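Without the block 290 probe sets were called over the whole array, with the replicate block 4379, after centring each array on its median 133 and with an intensity trend in the variance 87. Leaving out single arrays gave 0 to 280, with calls left when RP-I 3 was the one removed and 0 otherwise (5015 to 7979 at an unadjusted p under 0.05 in limma). Blocked comparisons with both arrays numbered 1, 2 or 3 left out, added after seeing the data, gave 0, 3159 and 2163. Calls among the diterpene cyclases were 0 in the main comparison, 1 with the replicate block, 0 to 1 when single arrays were left out (1 without RP-I 3), and 1 in the blocked comparison without number 2 and 1 without number 3, each time CPS1. With the study's thresholds 2 passed, 1 to 2 when single arrays were left out, and in blocked comparisons 1 without number 2 and 1 without number 3. Calls in the pathway lists went from 0 to 4 with the replicate block, 3 without number 2 and 2 without number 3. The 1 call among cluster neighbours, LOC4335086, became 0 to 1 when single arrays were left out and 0 in the blocked comparison without number 1. The sign of small differences was not stable: CPS4 gave -0.01 after quantile normalization applied again, -0.01 after median centring, -0.08 and -0.06 with the block and numbers 2 or 3 left out, and -0.20 to 0.13 without single arrays; CPS2 gave 0.04 with the block and number 2 left out and -0.33 to 0.26 without single arrays; KS1 gave 0.19 and -0.34 to 0.04 in the same way; the second KSL7 probe set gave -0.06 with the block and number 3 left out and -0.06 to 0.09; and KSL10 gave -0.08 with the block and number 1 left out. The branch difference stayed negative, from -0.67 to -0.16 without single arrays. Of 211 values of single probe sets under alternatives, 16 changed sign, 13 gained and 6 lost a call, and 176 did neither. The causes were not tested. With 3 arrays for each group, a difference such as that of KSL4 (95% interval 0.19 to 2.75) is measured too coarsely to be told from a small one.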

Other observations

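Some further genes of gibberellin and terpene synthesis are listed by the study under locus names that the array annotation used here does not tie to a symbol. The study chose them on these arrays, so neither their size nor their passing a test here is independent evidence. The gibberellin 20-oxidase 1 locus LOC_Os03g63970 had a mean log2 signal of 6.30 ± 0.52 without and 7.58 ± 0.41 with infestation (SD, n = 3), with pair differences of 1.64, 1.81 and 0.39. Its groups did not overlap, and the log2 difference was 1.28 (adjusted p = 0.134 in limma, 0.07 with the block). The locus LOC_Os05g11810, listed as a gibberellin 2-beta-dioxygenase, an enzyme class that inactivates gibberellin, was lower on all 3 of its probe sets, with log2 differences of -2.31, -2.40 and -2.06 and no overlap on any. Adjusted p in limma was 0.0774, 0.0607 and 0.217, and 0.0378, 0.0217 and 0.0603 with the block, so 2 of the 3 fell in the blocked comparison. CPS1, KO2 and the 20-oxidases had higher means, while KS1 gave -0.15, KAO -0.06 and EUI, which also inactivates gibberellin, 0.23. Whether any of these differences go together was not tested, and gibberellin itself was not measured on the arrays.

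Among cyclases outside the member list, LOC_Os04g52210, listed as an ent-kaurene synthase B, read 7.83, 10.34 and 6.58 in RP-UI 1 to 3 and 6.09, 4.87 and 4.73 in RP-I 1 to 3. The un-infested arrays were far apart and all above the infested ones, with a log2 difference of -3.02 (adjusted p = 0.206 in limma, 0.0839 with the block). The KSL4 probe set stands in the study's list under the same enzyme name, while the array annotation ties it to KSL4. Of the terpene synthase loci, LOC_Os04g27430 gave 1.90 (adjusted p = 0.0647 in limma, 0.0208 with the block) and LOC_Os02g02930 gave -2.83 (0.129, and 0.0441 with the block). LOC_Os04g27670 read 7.37, 9.10 and 3.79 in RP-I 1 to 3 on one of its probe sets, against 3.61, 3.33 and 3.55 in RP-UI, so that RP-I 3 lay beside the un-infested arrays (adjusted p = 0.304 in limma). A probe set that the study lists under terpenoids with several loci rose by 1.86 (adjusted p = 0.0476 in limma, 0.015 with the block). With the block, terpene synthase probe sets passed in both directions, which the study's choice of them on these arrays largely fixed beforehand.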
